A study of Mus musculus with 6 samples.

Results

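The interleukin-6 (IL-6) family genes Il6, Il11, Osm, Lif and Clcf1 and the receptor genes Il6ra, Il6st, Il11ra1, Osmr and Lifr were examined in colitis-associated colorectal tumors. These 10 genes, 5 ligands and 5 receptors, were taken by name from a table of 54532 genes, and all 10 were found. RNA-seq was performed on 3 tumor samples of Tmem173fl/fl mice, labelled AOM_WT, and 3 of Tmem173fl/flLzym-Creert2 mice, labelled AOM_CRE and called Tmem173iΔmye below. The labels do not say whether each sample came from a separate mouse. All mice carried Tmem173, the gene of the DNA-sensing adaptor STING, flanked by loxP sites, and all received azoxymethane (AOM) with 3 cycles of dextran sulfate sodium (DSS) followed by tamoxifen (TAM). Only the Tmem173iΔmye mice carried the TAM-inducible Cre, which the Lyz2 promoter drives in myeloid cells such as macrophages and neutrophils. Their background was C57BL/6N, and their age at sampling was not given in the sources used here. The comparison asked how the loss of myeloid STING after tumors had formed altered their transcripts.

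IL-6 family cytokines signal through gp130, the shared receptor chain encoded by Il6st. IL-6 and IL-11 first bind a receptor of their own, IL-6Rα or IL-11Rα1, whereas leukemia inhibitory factor (LIF) and oncostatin M (OSM) assemble gp130 with LIFR or OSMR. Bound gp130 activates Janus kinases, which phosphorylate the transcription factor STAT3, and STAT3 in turn induces its own inhibitor SOCS3. In the colon, this pathway is known for epithelial repair after injury and for the growth of inflammation-associated tumors, in which fibroblasts and myeloid cells are common sources of the ligands.

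The DNA just before the start sites was inspected because Il6, Il11, Osm and Lif were all highest in Tmem173iΔmye replicate 1. Whether they varied together across the other tumors was not tested. The set of RefSeq start sites used here held entries for 8 of the 10 genes, with 11 start sites in all on GRCm38.p6. It held none for the ligand genes Osm and Clcf1, whose upstream bases were therefore not searched. Motifs were searched on both strands in the 250 bases upstream of each start site. They were chosen after the values were seen, and no found match overlapped another. The AP-1 motif TGANTCA was found upstream of 3 of the 11 start sites, 1 each of Il6, Il11 and Lif, and upstream of no receptor start site. Of all 32851 RefSeq windows of this length, 6.75% held it. Several receptor windows overlap their own gene. All 250 bases of the Osmr window are annotated Osmr exon, as are 247 bases of 1 Il11ra1 window. Both Lifr windows and the other Il11ra1 window lie within the gene body. The Il6 window on chromosome 5 (chr5:30012864-30013113, plus strand) also held the NF-kB motif (GGG, any 2 bases, TT, any base and CC), present in 4.11% of windows, and the C/EBP motif TTNNGCAA, present in 9.56%. The Il11 window (chr7:4778142-4778391, minus strand) precedes the more downstream of 2 Il11 start sites and lies in an intron of the longer transcripts. The Lif window (chr11:4257318-4257556, plus strand) is printed up to the annotated first exon. The 3 windows with AP-1 matches are shown 5′ to 3′, with every motif match in capitals.
Il6: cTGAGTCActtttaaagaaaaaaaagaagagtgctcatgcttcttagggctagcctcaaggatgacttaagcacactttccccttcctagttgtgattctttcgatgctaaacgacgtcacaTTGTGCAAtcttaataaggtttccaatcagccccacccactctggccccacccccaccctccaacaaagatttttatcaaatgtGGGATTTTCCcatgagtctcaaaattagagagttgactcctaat
Il11: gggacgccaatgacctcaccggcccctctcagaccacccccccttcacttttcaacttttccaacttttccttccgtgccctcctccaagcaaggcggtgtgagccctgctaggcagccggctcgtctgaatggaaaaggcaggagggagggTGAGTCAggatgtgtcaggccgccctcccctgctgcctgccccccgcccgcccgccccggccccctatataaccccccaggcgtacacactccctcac
Lif: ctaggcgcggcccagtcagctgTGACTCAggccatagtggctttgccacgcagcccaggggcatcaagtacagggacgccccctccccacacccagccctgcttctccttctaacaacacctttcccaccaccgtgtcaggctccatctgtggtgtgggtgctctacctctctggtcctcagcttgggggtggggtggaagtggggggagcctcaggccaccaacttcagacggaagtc
The AP-1 match lay from -249 to -243 in Il6, from -98 to -92 in Il11 and from -228 to -222 in Lif, counted from the start site with -1 as the first base upstream. In Il6, the C/EBP match lay from -128 to -121 and the NF-kB match from -44 to -35. The STAT motif TTCNNNGAA, held by 7.02% of all windows, matched in none of the 11 windows. Neither did TATAAA, 1 form of the TATA box, held by 12.4%. Other forms of the TATA box were not searched. A match describes the letters alone, and binding of a factor was not measured.

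Between 15329810 and 16533732 reads were counted per tumor, so 1 count was worth 0.0600 to 0.0667 CPM, the count scaled to library size. Tmem173 had 102 to 194 CPM in the Tmem173fl/fl tumors and 124 to 145 CPM in the Tmem173iΔmye tumors (log2 fold change 0.0015, 95% interval -0.56 to 0.56), and so did not tell the genotypes apart in whole tumor RNA. Tmem173iΔmye replicate 1 stood apart in many of the results that follow. It was the highest of the 6 tumors for 24.9% of the 16426 genes tested, for 4 of the 5 ligand genes and for 0 of the 5 receptor genes. Y-linked transcripts were above 100 counts in 1 Tmem173fl/fl and 2 Tmem173iΔmye tumors, so the sexes were not balanced. Among pairs of tumors, counts differed by more than the sampling noise in every case, with a chi-square per degree of freedom of 15.2 or more. Markers of epithelium, fibroblasts, macrophages, neutrophils, endothelium, smooth muscle and T cells were above 0 in every tumor.

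The levels of the members were compared with each other as FPKM, the counts scaled to gene length and sequencing depth. The ligand transcripts together had 13.5, 15.3 and 10.3 FPKM in Tmem173fl/fl replicates 1, 2 and 3. They had 37.5, 15.7 and 16.3 FPKM in Tmem173iΔmye replicates 1, 2 and 3. In FPKM, all 3 Tmem173iΔmye sums were above the Tmem173fl/fl sums, and replicates 2 and 3 were close to the highest Tmem173fl/fl tumor. In CPM, which is not scaled to gene length, the sums overlapped, with 48.9, 49.7 and 36.6 in Tmem173fl/fl and 107, 54.9 and 47.9 in Tmem173iΔmye replicates 1, 2 and 3. Il6 had the lowest FPKM of the 5 ligands and Osm the second lowest in all 6 tumors. Il6 contributed 0.33% to 3.94% of the ligand sum, and Osm 3.85% to 10.9%. Lif, Clcf1 and Il11 made up the rest and changed places between tumors. Clcf1 was the largest ligand in Tmem173fl/fl replicate 3 with 52.4% of the sum and in Tmem173iΔmye replicate 2 with 36.8%. Il11 was the largest in Tmem173iΔmye replicates 1 and 3, with 48.6% and 46.5%, and also in Tmem173fl/fl replicate 2, with 35.0%.

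**Figure D1:**
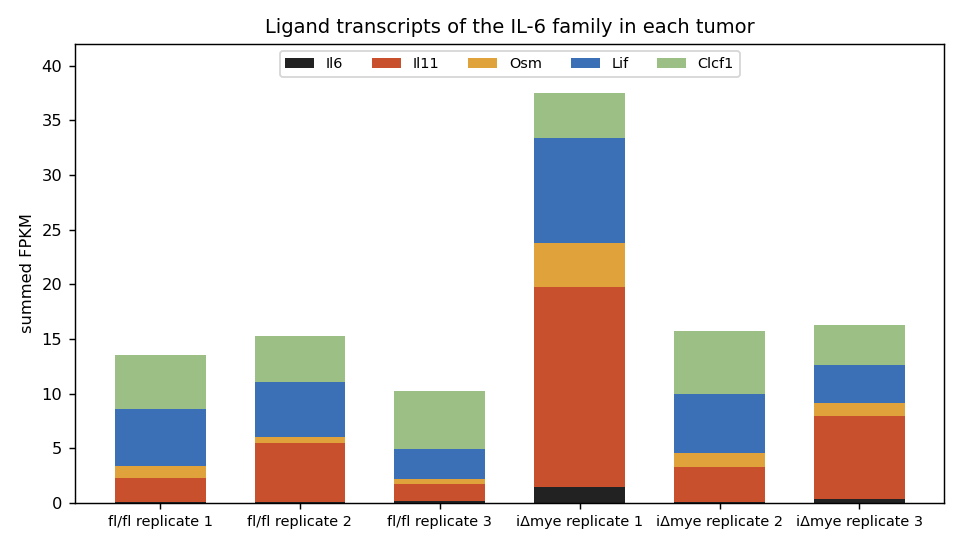
Stacked bars give the FPKM of the 5 ligand genes in each of the 3 Tmem173fl/fl (fl/fl) and 3 Tmem173iΔmye (iΔmye) tumors. The tallest bar, 37.5 FPKM, is Tmem173iΔmye replicate 1, and the other 5 lie between 10.3 and 16.3.

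Receptor transcripts kept a steadier order than those of the ligands. They summed to 23.2, 29.1 and 24.97 FPKM in Tmem173fl/fl replicates 1, 2 and 3 and to 21.6, 27.3 and 25.4 FPKM in Tmem173iΔmye replicates 1, 2 and 3. The groups overlapped. Il6st, the gp130 gene, was the highest receptor in every tumor with 40.7% to 53.9% of the sum. Il11ra1 was the second and Il6ra the lowest in every tumor, the latter with 4.63% to 7.47%. Osmr and Lifr lay between them and were not separated, since the ratio of Osmr to Lifr ran from 0.897 to 1.46. Il6st had 6.18 to 11.6 times the FPKM of Il6ra. In each tumor the FPKM of Il11 was 12.3 to 62.1 times that of Il6. These ratios are imprecise, since Il6 had 3 to 5 counts in the Tmem173fl/fl tumors. The ratio of 62.1, in Tmem173iΔmye replicate 2, rests on 2 Il6 counts.

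**Figure D2:**
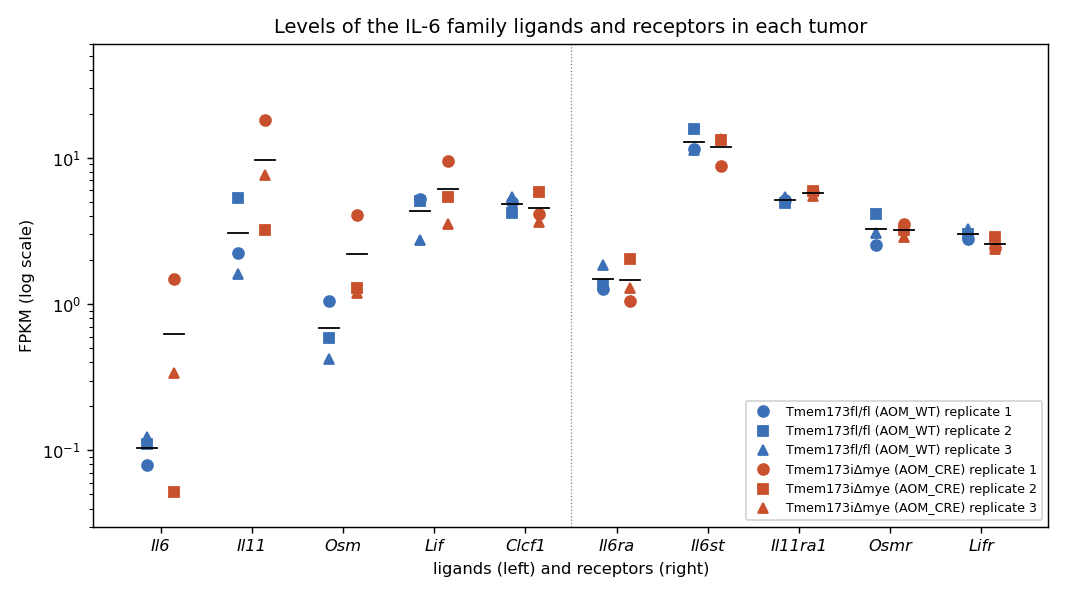
Points give the FPKM of each member in each tumor on a log scale, with Tmem173fl/fl in blue, Tmem173iΔmye in orange and a bar at each group mean. The receptor groups lie close together, whereas Il6, Il11 and Osm spread widely among the Tmem173iΔmye tumors.

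Between the genotypes, the ligand genes Il6, Il11 and Osm had higher mean levels in Tmem173iΔmye tumors, with fitted folds over Tmem173fl/fl of 3.17 to 5.88, whereas those of the receptor genes lay between 0.844 and 1.11. These 3 ligand genes passed the threshold below and no receptor gene did. A gene passed the threshold when its level differed by 1 or more on the log2 scale and its unadjusted p from edgeR's quasi-likelihood test was under 0.05. Of the 9 members that passed the filter on low values (a mean FPKM of at least 0.5), 2 passed it, Il11 and Osm, both higher, against a background of 2.12% of all 16426 genes tested in either direction and 1.26% in the higher direction. Il6 failed the filter. Fitted without it over 30939 genes with any count, it passed the threshold, as did 2.82% of those genes. Without Tmem173iΔmye replicate 1, 0 members passed. With Benjamini-Hochberg adjustment, edgeR called 0 of the 16426 genes (0.00%) at an adjusted p under 0.05, whereas 1008 genes (6.14%) had an unadjusted p under 0.05, 3.23% higher and 2.90% lower. DESeq2 called 28 genes after adjustment, none of them a member. In whole tumor RNA, fewer cells of a type and less RNA per cell cannot be told apart. The labels say nothing of how the tumors of a group were separated, so the p-values describe the spread between these samples.

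Il6, a cytokine of the acute phase and of T cell differentiation, was scarce. It had 3, 4 and 5 counts in Tmem173fl/fl replicates 1, 2 and 3 and 57, 2 and 13 counts in Tmem173iΔmye replicates 1, 2 and 3. The Tmem173iΔmye tumors thus included the lowest as well as the highest count, and 67.9% of all 84 counts were in Tmem173iΔmye replicate 1. In CPM, the means were 0.254 ± 0.0537 (SD, n = 3) in Tmem173fl/fl and 1.52 ± 1.84 (SD, n = 3) in Tmem173iΔmye. The log2 fold change was 2.56 (SE 0.86, 95% interval 0.74 to 4.38), with an adjusted p = 0.661 from edgeR. Without Tmem173iΔmye replicate 1 it was 0.89 and no longer passed the threshold.

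Il11, a cytokine that fibroblasts secrete in response to tissue injury, had 4.55, 10.7 and 3.24 CPM in Tmem173fl/fl replicates 1, 2 and 3. It had 36.8, 6.49 and 15.3 CPM in Tmem173iΔmye replicates 1, 2 and 3. The groups overlapped, with Tmem173iΔmye replicate 2 below Tmem173fl/fl replicate 2. The means were 6.18 ± 4.002 (SD, n = 3) in Tmem173fl/fl and 19.5 ± 15.6 (SD, n = 3) in Tmem173iΔmye. The log2 fold change was 1.66 (SE 0.67, 95% interval 0.12 to 3.21), with an adjusted p = 0.742 from edgeR. The threshold was no longer passed without Tmem173iΔmye replicate 1, Tmem173fl/fl replicate 1 or Tmem173fl/fl replicate 3, where the log2 fold change was 0.82, 1.49 and 1.36. It was 2.33 without Tmem173fl/fl replicate 2.

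Osm, a cytokine of myeloid and T cells, had 2.41, 1.33 and 0.960 CPM in Tmem173fl/fl replicates 1, 2 and 3. It had 9.28, 2.96 and 2.74 CPM in Tmem173iΔmye replicates 1, 2 and 3. Every Tmem173iΔmye tumor was above every Tmem173fl/fl tumor. Osm and Il11ra1 were the 2 of 9 tested members whose groups did not overlap, against a background of 12.5% of genes, 6.03% with every Tmem173iΔmye tumor higher and 6.47% with every one lower. The mean CPM of Osm was 1.57 ± 0.750 (SD, n = 3) in Tmem173fl/fl and 4.99 ± 3.71 (SD, n = 3) in Tmem173iΔmye. The log2 fold change was 1.67 (SE 0.59, 95% interval 0.30 to 3.04), with an adjusted p = 0.742 from edgeR. The threshold was no longer passed without Tmem173iΔmye replicate 1, Tmem173fl/fl replicate 2 or Tmem173fl/fl replicate 3, where the log2 fold change was 0.86, 1.57 and 1.42.

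Lif, which signals through LIFR and gp130, had 23.1, 21.9 and 12.004 CPM in Tmem173fl/fl replicates 1, 2 and 3 and 41.8, 23.6 and 15.4 CPM in Tmem173iΔmye replicates 1, 2 and 3. Tmem173iΔmye replicate 1 was the highest tumor and the groups overlapped. The log2 fold change was 0.50 (SE 0.39, 95% interval -0.40 to 1.41, adjusted p = 0.770, edgeR), and 0.038 without that tumor. Clcf1, which encodes a cytokine of B cells and neurons, had 18.7, 15.5 and 20.1 CPM in Tmem173fl/fl replicates 1, 2 and 3 and 15.5, 21.7 and 13.6 CPM in Tmem173iΔmye replicates 1, 2 and 3. Its groups overlapped, with a log2 fold change of -0.10 (SE 0.22, 95% interval -0.61 to 0.42). Of its exonic bases, 311 are shared with another gene on the same strand, so how reads there were assigned is uncertain. Tmem173iΔmye replicate 1 was the highest tumor for Il6, Il11, Osm and Lif but not for Clcf1.

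**Figure D3:**
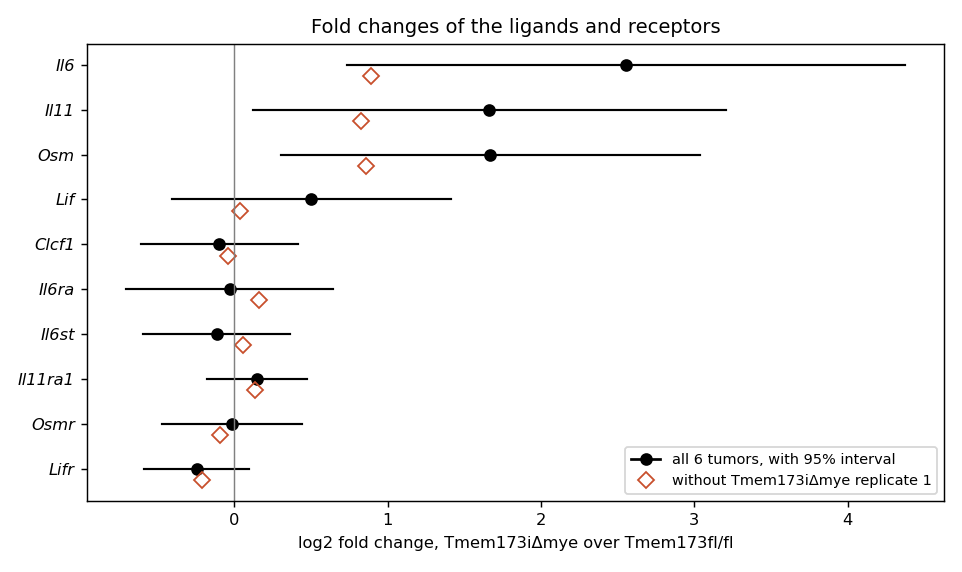
Filled points give the log2 fold change of each member, Tmem173iΔmye over Tmem173fl/fl, with lines for the 95% interval, and open diamonds give it without Tmem173iΔmye replicate 1. The intervals of Il6, Il11 and Osm lie above 0 and those of the other 7 genes cross it.

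None of the receptor genes had an unadjusted p under 0.05, and their 95% intervals lay between -0.70 and 0.65 on the log2 scale. Il6st had 129, 173 and 127 CPM in Tmem173fl/fl replicates 1, 2 and 3 and 98.0, 149 and 150 CPM in Tmem173iΔmye replicates 1, 2 and 3 (log2 fold change -0.11, 95% interval -0.59 to 0.37). The lowest tumor was Tmem173iΔmye replicate 1, in which the ligand sum was highest. Il6ra, the receptor chain of IL-6, had 11.1, 11.6 and 16.0 CPM in Tmem173fl/fl replicates 1, 2 and 3 and 9.03, 17.8 and 11.1 CPM in Tmem173iΔmye replicates 1, 2 and 3 (log2 fold change -0.029, 95% interval -0.70 to 0.65). The groups overlapped, and the Il6ra exons share 242 bases with an antisense gene. Il11ra1, the receptor chain of IL-11, had 23.3, 22.002 and 24.4 CPM in Tmem173fl/fl replicates 1, 2 and 3 and 26.1, 26.7 and 24.5 CPM in Tmem173iΔmye replicates 1, 2 and 3 (log2 fold change 0.15, 95% interval -0.18 to 0.47). The groups were separated by only the gap between 24.43 and 24.51 CPM, and the adjusted p was 0.801 (edgeR). Near-identical copies of Il11ra1 hold 29.1% of its 100-base windows, so its reads may be split or lost. Osmr, the OSM receptor chain, had 30.9, 49.7 and 37.6 CPM in Tmem173fl/fl replicates 1, 2 and 3 and 43.0, 38.9 and 35.0 CPM in Tmem173iΔmye replicates 1, 2 and 3 (log2 fold change -0.016, 95% interval -0.47 to 0.44). The Tmem173iΔmye tumors lay within the Tmem173fl/fl range. Lifr had 30.7, 32.4 and 35.5 CPM in Tmem173fl/fl replicates 1, 2 and 3 and 26.3, 31.1 and 25.8 CPM in Tmem173iΔmye replicates 1, 2 and 3 (log2 fold change -0.24, 95% interval -0.59 to 0.10). It had the lowest fold change of the receptors, and its groups overlapped by 1 tumor.

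The rest of the pathway was taken from 5 lists. Among 13 genes of the gp130 cascade, all tested, 8 had a fold change above 0 (49.4% of all genes) and 5 below, with a median of 0.029 on the log2 scale against -0.0042 over all genes tested. None had an unadjusted p under 0.05. Stat3 had 305, 313 and 261 CPM in Tmem173fl/fl replicates 1, 2 and 3 and 297, 290 and 310 CPM in Tmem173iΔmye replicates 1, 2 and 3 (log2 fold change 0.029, 95% interval -0.28 to 0.33). Socs3, a STAT3-induced inhibitor of the cascade, ran from 72.3 to 139 CPM in Tmem173fl/fl and from 84.1 to 135 CPM in Tmem173iΔmye tumors (log2 fold change 0.0078, 95% interval -0.61 to 0.62). Stat3 and Socs3 were named after their values were seen and do not stand for the list. The log2 fold changes of the 13 genes ran from -0.43 to 1.19. Of the 13, 4 were highest in Tmem173iΔmye replicate 1, as were 24.9% of all genes tested. Gab1, an adaptor of receptor kinases, was lower in every Tmem173iΔmye tumor, with 35.4 to 52.1 CPM against 53.2 to 70.8 CPM (log2 fold change -0.43, SE 0.19, 95% interval -0.87 to 0.013). It was 1 of the 13 genes, against 6.47% of all genes lower in every Tmem173iΔmye tumor. Shc1, also 1 of the 13, was higher in every one, as were 6.03% of all genes.

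Of 24 genes listed as STAT3 targets, 21 were tested, 15 above and 6 below 0, with a median of 0.14, and 2 had an unadjusted p under 0.05, both higher, against 3.23% of all genes. Saa3, a serum amyloid A of the acute-phase response, had 40.2, 31.2 and 56.9 CPM in Tmem173fl/fl replicates 1, 2 and 3 and 287, 56.8 and 64.6 CPM in Tmem173iΔmye replicates 1, 2 and 3 (log2 fold change 1.67, SE 0.61, adjusted p = 0.742, edgeR). Its unadjusted p was not under 0.05 without Tmem173iΔmye replicate 1, Tmem173fl/fl replicate 1 or Tmem173fl/fl replicate 2, where the log2 fold change was 0.50, 1.63 and 1.49. Fos, an immediate early gene, had 98.1, 64.9 and 55.9 CPM in Tmem173fl/fl and 127, 123 and 86.8 CPM in Tmem173iΔmye replicates 1, 2 and 3 (log2 fold change 0.62, SE 0.24, adjusted p = 0.742, edgeR). Its unadjusted p was not under 0.05 when Tmem173fl/fl replicate 2 or 3 or Tmem173iΔmye replicate 1 or 2 was left out, where the log2 fold change lay between 0.46 and 0.55. The list groups genes by known function and does not measure STAT3 activity.

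Among 10 other ligands and receptors of the family, 4 were tested, 3 above and 1 below 0, with a median log2 fold change of 0.39. None had an unadjusted p under 0.05. Of the 4, 1 was higher in every Tmem173iΔmye tumor, as were 6.03% of all genes. Ctf1, which encodes cardiotrophin-1, was slightly lower in every Tmem173iΔmye tumor (5.11 to 5.92 CPM against 5.93 to 6.48 CPM, log2 fold change -0.18), as were 6.47% of all genes. The 4 genes of receptor shedding, which release soluble IL-6 receptor from the cell surface, were all tested, and 3 of the 4 had a fold change below 0. None passed, with Rhbdf1, a partner of the sheddase ADAM17, at -0.26 (SE 0.13, 95% interval -0.57 to 0.052) and Adam10, itself a sheddase, at -0.085 (95% interval -0.45 to 0.28).

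Of 6 inflammatory cytokines listed as upstream inducers, 5 were tested and 2 had an unadjusted p under 0.05, both higher, against 3.23% of all genes. Il1b, which induces Il6 in many cells, had 20.8, 18.7 and 16.6 CPM in Tmem173fl/fl and 110.0, 32.6 and 22.4 CPM in Tmem173iΔmye replicates 1, 2 and 3 (log2 fold change 1.56, SE 0.54, adjusted p = 0.742, edgeR). It was 0.56 without Tmem173iΔmye replicate 1, with an unadjusted p still under 0.05, and 1.56 and 1.48 without Tmem173fl/fl replicates 2 and 3, where the unadjusted p was not under 0.05. Il17a, the cytokine of type 17 T cells, had 9, 9 and 8 counts in Tmem173fl/fl replicates 1, 2 and 3 and 61, 56 and 10 counts in Tmem173iΔmye replicates 1, 2 and 3 (log2 fold change 2.25, SE 0.67, adjusted p = 0.742, edgeR). For both genes every Tmem173iΔmye tumor was above every Tmem173fl/fl tumor, as for 6.03% of all genes. In a fit with a Y-linked covariate (reads present or not), the log2 fold change was 1.07 for Il1b and 1.502 for Il17a, and neither kept an unadjusted p under 0.05. Without Tmem173iΔmye replicate 1 the median of the tested upstream cytokines moved from 0.71 to -0.10.

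**Figure D4:**
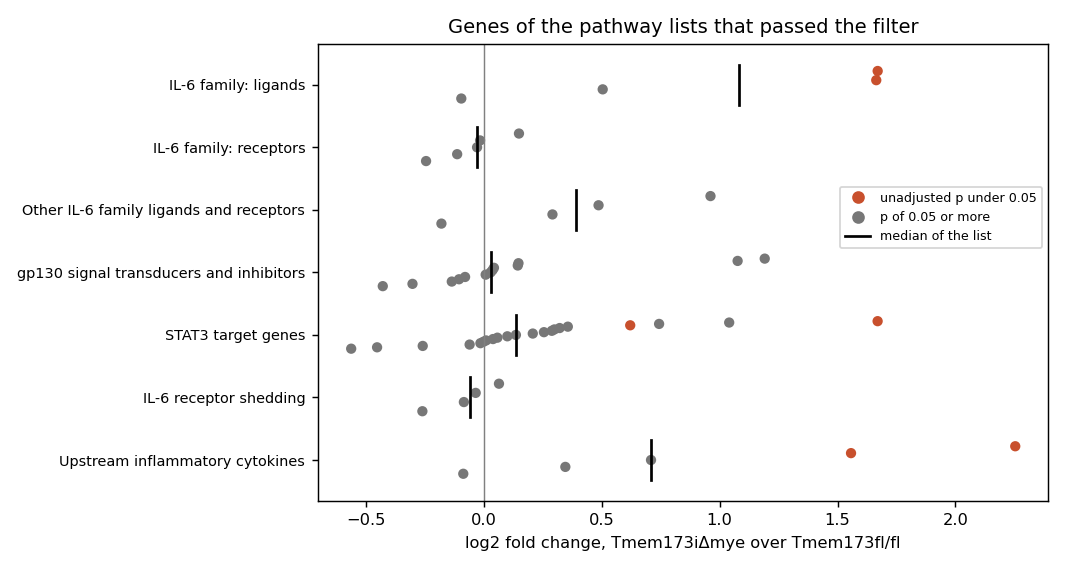
Each point is a tested gene of a list, placed by its log2 fold change, Tmem173iΔmye over Tmem173fl/fl, with orange for an unadjusted p under 0.05 and a bar at the median of the list. The transducers centre on 0.029 and the 4 tested ligands on 1.08. Without Tmem173iΔmye replicate 1, these ligands had log2 fold changes of 0.82 (Il11), 0.86 (Osm), 0.038 (Lif) and -0.039 (Clcf1).

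Of 7 marker lists, some were highest in Tmem173iΔmye replicate 1, the tumor with the highest ligand sum, and others were not. The 7 neutrophil markers summed to 216, 70.9 and 181 CPM in Tmem173fl/fl replicates 1, 2 and 3 and to 395, 134 and 117 CPM in Tmem173iΔmye replicates 1, 2 and 3. Of the 7, 6 were highest in Tmem173iΔmye replicate 1, as were 24.9% of all genes tested. A fold change above 0 was seen for 6, as for 49.4% of all genes, none with an unadjusted p under 0.05. The exception to both was Ly6g, highest in Tmem173fl/fl replicate 1 (log2 fold change -0.34). The 8 epithelial markers summed to between 10741 and 12859 CPM in Tmem173fl/fl tumors and to 14157, 12078 and 11928 CPM in Tmem173iΔmye replicates 1, 2 and 3. The 7 T cell markers summed to between 19.7 and 34.7 CPM in Tmem173fl/fl tumors and to 38.8, 32.5 and 23.4 CPM in Tmem173iΔmye replicates 1, 2 and 3. The 6 endothelial markers summed to between 95.7 and 108 CPM in Tmem173fl/fl tumors and to 123, 99.6 and 122 CPM in Tmem173iΔmye replicates 1, 2 and 3. The sums of these 4 lists were highest in Tmem173iΔmye replicate 1.

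The 8 fibroblast markers summed to between 1759 and 2235 CPM in Tmem173fl/fl tumors and to 1831, 2683 and 2190 CPM in Tmem173iΔmye replicates 1, 2 and 3, so that replicate 1 was the lowest of its group. The 6 smooth muscle markers summed to between 287 and 411 CPM in Tmem173fl/fl tumors and to 241, 208 and 368 CPM in Tmem173iΔmye replicates 1, 2 and 3, and none of the 6 was highest in replicate 1. The 7 macrophage markers summed to 676, 438 and 434 CPM in Tmem173fl/fl replicates 1, 2 and 3 and to 655, 595 and 393 CPM in Tmem173iΔmye replicates 1, 2 and 3, with the highest sum in Tmem173fl/fl replicate 1. The part of these cell types in the ligand values was not tested. In a fit with a Y-linked covariate (reads present or not), the log2 fold change was 2.30 for Il6, 1.68 for Il11 and 1.30 for Osm, and Il11 no longer passed the threshold.

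**Figure D5:**
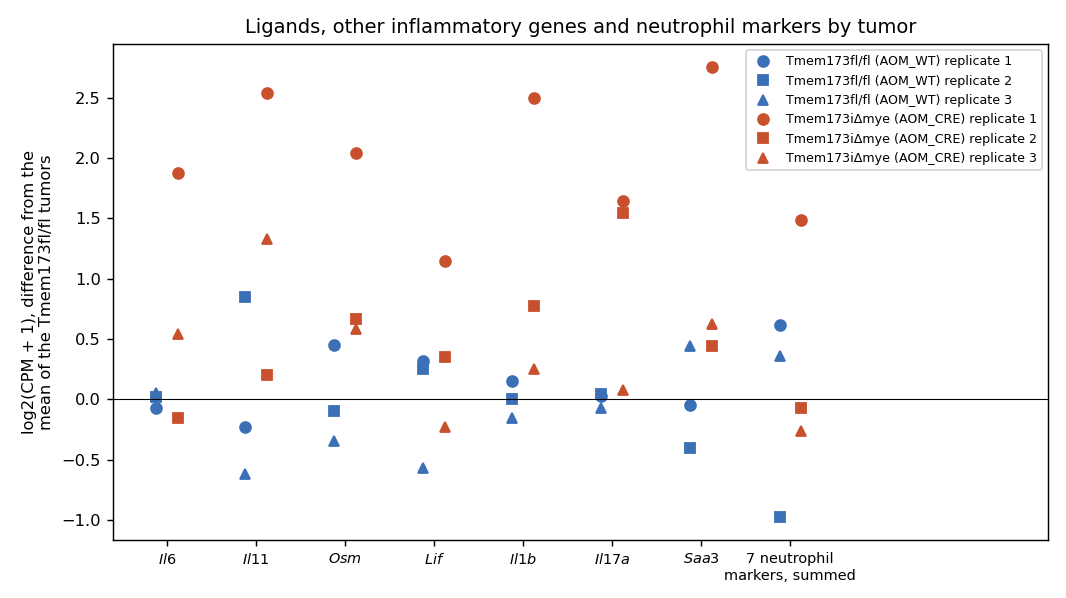
Points give log2(CPM + 1) of 4 ligand genes, 3 other inflammatory genes and the summed 7 neutrophil markers in each tumor, as the difference from the mean of the 3 Tmem173fl/fl tumors. Tmem173iΔmye replicate 1 (orange circles) is the highest tumor in all 8 columns. The columns are a selection: Clcf1 and the fibroblast, smooth muscle and macrophage sums, not shown, were highest in other tumors.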

How the data were processed

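RNA-seq was performed on polyA RNA of 6 AOM/DSS tumors, 3 per genotype. The authors deposited read counts per gene on GRCm38 (mm10), and per the labels the tools were CASAVA 1.8, fastp, HISAT2 2.0.5, featureCounts 1.5.0-p3 and DESeq2 1.20.0. The annotation release and strand setting are not given in the sources used here. The authors also deposited FPKM, which equals counts divided by gene length, size factor and geometric mean total (largest relative difference 4.96e-07). The group means, fold changes and p-values in the same table were the authors' comparison and were not used. No other sample columns were present (0).

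The quasi-likelihood test of edgeR 4.0.16 under R 4.3.3 was applied to these counts with TMM normalization and genotype as the sole term. Adjustment was by Benjamini-Hochberg over the 16426 genes whose mean FPKM reached 0.5, and limma 3.58.1 and DESeq2 1.42.0 were alternatives. Il6 was fitted without that filter. CPM used TMM library sizes, and SE is the absolute log2 fold change over the square root of F. The threshold, a log2 difference of 1 or more in either direction with an unadjusted p under 0.05, follows the study's methods. The scripts were tested on simulated data. The common dispersion gave a biological coefficient of variation of 0.273.

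All members were named. From each pathway list, genes with an unadjusted p under 0.05 (at most the 6 lowest) or, with none, the 2 lowest were named. Marker lists give sums and counts, and Ly6g and Shc1 were named outside this rule. Of the genes this rule names, 2 are not reported here. The members and lists were chosen with earlier results of these data known. Start-site sequences came from RefSeq and exons from GENCODE M21.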

Additional observations from a re-analysis of the deposited data

How the results depend on the processing

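Depth limited Il6, which had at most 57 counts in a tumor. It failed the filter, so every setting used its fit over all genes with a count. With edgeR and TMM, only Il11 and Osm among the members past the threshold were refitted when the filter changed. The count of members past the threshold was 3 with edgeR and TMM, and also with median-of-ratios, upper-quartile or library-total scaling, without the filter, with a mean FPKM of at least 1 and with DESeq2. It was 0 with limma on log2(FPKM + 1), 1 (Osm) with limma on log2(FPKM + 0.1) or voom, and 2 (Il6 and Osm) with the replicate block and with Y-linked reads as a covariate; leaving out each tumor gave 0 to 3, with 0 without Tmem173iΔmye replicate 1. Genes past the threshold numbered 349, and 872 without the filter, 136 with limma on log2(FPKM + 1), 211 with the Y-linked covariate and 218 to 636 when each tumor was left out. Genes with an adjusted p under 0.05 numbered 0, and 6 without the filter, 28 with DESeq2 and 0 to 1 when each tumor was left out. Over all alternatives the adjusted p ran from 0.270 to 0.964 for Il6, from 0.390 to 1 for Il11 and from 0.388 to 1 for Osm. With each tumor left out, the median of the other family genes ran from 0.11 to 0.78, that of the transducers from -0.0066 to 0.063, that of the STAT3 targets from 0.068 to 0.27, that of the shedding genes from -0.12 to -0.026 and that of the upstream cytokines from -0.10 to 1.31 on the log2 scale. The sign of Osmr changed to 0.0017 (limma, log2(FPKM + 1)), 0.0070 (limma, log2(FPKM + 0.1)), 0.0084 (voom), 0.0048 (replicate block) and 0.043 (Y-linked covariate), and that of Socs3 to -0.0075 (library totals) and -0.086 (Y-linked covariate). Leaving out each tumor gave -0.16 to 0.19 for Osmr, -0.21 to 0.061 for Il6st, -0.35 to 0.16 for Il6ra, -0.31 to 0.039 for Clcf1, -0.16 to 0.055 for Adam10, -0.043 to 0.080 for Stat3 and -0.21 to 0.26 for Socs3, where the sign turned. Il1b and Saa3 lost an unadjusted p under 0.05 with both limma fits on FPKM, voom and the Y-linked covariate, and Il17a with voom and the Y-linked covariate. The cause was not tested.

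By the labels, same-numbered tumors share only a number, and whether they were paired is not given. Their deviations from the group means correlated at 0.315, 0.0085 and 0.154 for replicates 1, 2 and 3. Tumors with different numbers correlated at -0.374 to 0.223, the highest being Tmem173fl/fl replicate 2 with Tmem173iΔmye replicate 3. With the replicate block, 377 genes and 2 members passed the threshold, and 0 genes had an adjusted p under 0.05.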

Other observations

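The genes whose levels were most like a member across the 6 tumors were taken for Il11, Osm and Lif, the 3 members with the largest spread of log2(CPM + 1), from 16426 genes. The highest of so many correlations is high by selection, and the 6 tumors share the libraries of both genotypes, so the values are a description. For Il11 they were Platr11 (Pearson r 0.989, Spearman rho 0.986), Igfbp5, an insulin-like growth factor binding protein (r 0.988, rho 1), and Aen, an apoptosis-enhancing nuclease (r 0.985, rho 0.943). Igfbp5 had 159, 214 and 117 CPM in Tmem173fl/fl and 477, 197 and 278 CPM in Tmem173iΔmye replicates 1, 2 and 3, whereas Platr11 had at most 0.631 CPM. For Osm they were Tmem219 (r 0.998, rho 1), Acot7 (r 0.995, rho 1) and Gm15452 (r 0.994, rho 0.829). For Lif they were Csrnp1 (r 0.997, rho 0.829), Pdlim7 (r 0.995, rho 1) and Rac1, a small GTPase (r 0.987, rho 0.943). Without Tmem173iΔmye replicate 1, r was between 0.962 and 0.9997 for these 9 genes. They were picked by r over all 6 tumors, so this range is no independent check.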
